A study of Mus musculus with 6 samples.

Results

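Interferon-stimulated genes and interferon-induced GTPases were followed in brain border macrophages of young and old mice. The 43 genes were chosen by name, with earlier results of these data known. They were taken as antiviral genes of the type I interferon response and as members of the guanylate-binding protein (Gbp) and immunity-related GTPase (Irg) families. All 43 were among the 35598 identifiers of the deposited tables, and 42 passed the filter on low counts that left 10661 genes for testing. The macrophages, called CNS-associated macrophages (CAMs), were sorted from brains as CD3-CD11b+CD45+CD206+ cells. All mice were male C57BL/6 from a commercial breeder. The young group was aged 2 months (3 libraries) and the aged group 18 months (3 libraries), with no treatment named for either. The title of the series places the work in the immune response after stroke, but no library came from a mouse labelled as having had one. The labels do not say whether a library came from 1 animal or from several, so the p-values speak for the scatter among these 6 libraries alone, which may be technical.

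Interferons are secreted proteins that warn cells of infection. Type I interferons (alpha and beta) act through a complex that includes Stat2 and Irf9 and binds the interferon-stimulated response element (ISRE), while interferon gamma acts through the gamma-activated site (GAS). The first route is known for antiviral effectors such as the Ifit, Oas and Mx proteins, and the second for the large GTPases that attack vacuoles holding microbes. Many genes answer to both. Interferon-stimulated transcripts are also present without infection and have been described as a feature of the ageing brain.

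The promoters of 5 members are shown because they carry these elements in different arrangements and come from genes given library by library in the results. Each is the stretch of 250 bases before the transcription start, 5′ to 3′ on the strand of the gene, from RefSeq on GRCm38.p6. Capitals mark the ISRE core, searched as GAAA and GAAA with 2 bases of any kind between them (TTTC and TTTC on the other strand), and the GAS core, searched as TTC and GAA with 3 bases of any kind between them, which reads the same on both strands. Ifit1 (chr19:34640639-34640888, plus strand) holds 2 ISRE cores, 104 and 85 bases before the start. Gbp2 (chr3:142620413-142620662, plus strand) holds 1, at 59 bases. Gbp7 (chr3:142530086-142530335, plus strand) holds 1 ISRE core at 53 bases and 2 GAS cores at 106 and 87 bases. Irf1 (chr11:53769764-53770013, plus strand, the first of 2 listed starts) holds 1 GAS core at 90 bases and no ISRE core. Isg15 (chr4:156200819-156201068, minus strand) holds 3 overlapping ISRE cores from 78, 72 and 66 bases.
Ifit1: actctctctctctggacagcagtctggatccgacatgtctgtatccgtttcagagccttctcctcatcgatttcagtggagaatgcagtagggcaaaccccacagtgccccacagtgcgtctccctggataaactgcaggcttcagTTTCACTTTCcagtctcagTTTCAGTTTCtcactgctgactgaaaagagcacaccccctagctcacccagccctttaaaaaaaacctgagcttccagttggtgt
Gbp2: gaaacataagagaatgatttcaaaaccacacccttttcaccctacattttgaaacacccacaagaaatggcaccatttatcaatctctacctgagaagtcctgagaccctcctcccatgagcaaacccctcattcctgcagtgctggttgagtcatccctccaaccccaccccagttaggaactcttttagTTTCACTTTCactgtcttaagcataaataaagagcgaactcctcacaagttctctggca
Gbp7: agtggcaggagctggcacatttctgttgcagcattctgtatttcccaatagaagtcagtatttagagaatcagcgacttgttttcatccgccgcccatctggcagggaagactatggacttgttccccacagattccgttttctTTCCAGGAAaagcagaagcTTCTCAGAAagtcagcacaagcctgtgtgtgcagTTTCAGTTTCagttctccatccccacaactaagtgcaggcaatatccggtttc
Irf1: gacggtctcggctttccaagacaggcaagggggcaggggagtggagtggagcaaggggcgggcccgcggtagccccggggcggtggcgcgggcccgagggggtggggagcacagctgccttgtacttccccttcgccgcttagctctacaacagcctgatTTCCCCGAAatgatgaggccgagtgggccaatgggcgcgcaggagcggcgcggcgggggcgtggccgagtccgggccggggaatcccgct
Isg15: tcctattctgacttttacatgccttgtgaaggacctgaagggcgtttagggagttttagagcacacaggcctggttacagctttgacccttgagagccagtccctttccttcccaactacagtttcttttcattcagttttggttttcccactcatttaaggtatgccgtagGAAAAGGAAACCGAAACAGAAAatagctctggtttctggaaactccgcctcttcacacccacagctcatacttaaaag

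A promoter window of 300 bases, which adds 50 bases after the start, was listed for 31 of the 43 members. An ISRE core was found in 21 of these 31 (67.7%), against 3.99% of the 27025 genes with a window. It was found for 9 of 10 Gbp and Irg genes (90%) and for 11 of 19 antiviral genes (57.9%). A GAS core was found for 11 of the 31 members (35.5%), against 9.55% of all genes with a window. Of the GTPases 6 of 10 held a GAS core (60%), and each of the 6 also held an ISRE core. Of the 19 antiviral genes 4 held a GAS core (21.1%). Tgtp1 and Tgtp2, Igtp and Irgm2, and Ifit3 and Ifit3b are pairs with nearly the same bases around these elements. The counts therefore include copies. A match is a run of letters, not a measured binding site, and a miss does not show that no element is present.

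As a whole, the libraries were deep but uneven in what they detected. Totals lay between 26605079 and 33306121 estimated counts, and 35.5% of the genes tested had 3 counts or fewer in some library. edgeR's quasi-likelihood test called 1 gene of 10661 at an adjusted p under 0.05 (0.00938%), the B cell attractant Cxcl13, and no member. The defining gate transcript Mrc1 (CD206) was present in every library, from 1182 to 2940 CPM. In every aged library the microglia marker sum was higher, and the CAM marker sum lower, than in any young one. Over 12 microglia markers the sum was 5093 to 7749 CPM in the young and 9959 to 17341 CPM in the aged libraries. Of the 12, none was at 0, and 9 did not overlap with the aged libraries above (7.54% of all genes tested). Sall1, Gpr34 and Fcrls overlapped. Over 10 CAM markers it was 23565 to 26687 CPM in young against 7506 to 16227 CPM in aged libraries. Of the 10, 5 did not overlap with the aged libraries below (7.19% of all genes tested). Cbr2, Cd163, Folr2, F13a1 and Clec12a overlapped, with log2 fold changes from -0.15 to 0.072. Pf4 and Ms4a7 had the highest means, 12703 and 5488 CPM in the young libraries. The part of either cell type in the values of the antiviral genes and GTPases was not tested. In sorted bulk samples, fewer cells of a type and less RNA per cell cannot be told apart. Of the aged libraries, replicate 2 had the highest microglia sum, the lowest antiviral sum and the highest GTPase sum, and also the highest Irf1, Irf7 and Irf9. Aged replicate 3 stood apart, with 25.8 CPM summed over 10 neutrophil markers against 7741 to 37416 CPM in the other libraries. Over 5 red cell markers it held 85.8 CPM, against 9075 CPM or more. The 6 choroid plexus markers summed to 11851 CPM in young replicate 3 and 8178 in aged replicate 3, against 569 to 1380 elsewhere.

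Of the 42 members tested, 32 had fitted values above 0, that is, higher in the aged libraries, and 10 below. In all genes tested 49.3% of the values lay above 0. The members were chosen with earlier results of these data known, so such shares do not measure an independent excess. At an unadjusted p under 0.05 there were 7 members higher (16.7%) and 0 lower, where the same held for 3.63% and 2.04% of all genes tested. The 7 were Ly6e, Oasl2, Ifitm3, Ifit1, Irf1, Gbp2 and Gbp4, and the smallest adjusted p among them was 0.619. No overlap between the groups was found for 7 members with the aged libraries above (16.7%), against 7.54% of all genes, and for 0 with the aged libraries below, against 7.19%. The first of these counts depended on single libraries. Without aged replicate 3, 2 of 43 members (Ly6e and Gbp4) were under the unadjusted limit, against 3.28% of all genes, and without young replicate 1, 3 of 43 (Ly6e, Oasl2 and Ifit1), against 4.1%. The DESeq2 Wald test also called 0 members in either direction, with 1.06% of all genes called higher and 0.385% lower.

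**Figure D1:**
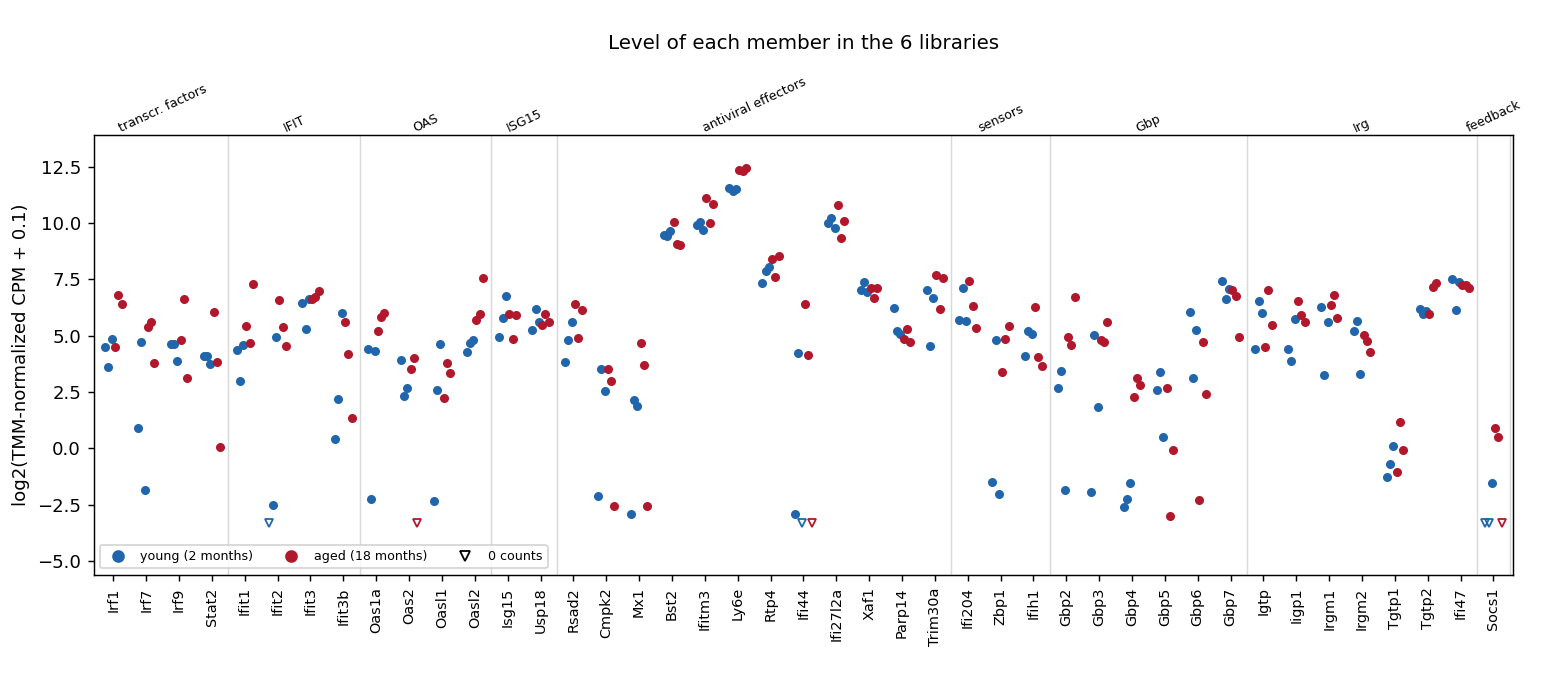
Level of each of the 43 members in the 6 libraries, as log2 of TMM-normalized CPM plus 0.1, ordered by role, with young libraries in blue, aged libraries in red and 0 counts as open triangles. For Ly6e, at the top of the scale, all 3 aged libraries lie above all 3 young ones, and many members under 50 CPM are near 0 in at least 1 library of either age.

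The members spanned a wide range of levels. Over the 6 libraries, Ly6e had the highest mean at 2407 TPM, followed by Ifi27l2a at 2190, Ifitm3 at 1329 and Bst2 at 577 TPM. These 4 antiviral genes took 75.6% to 80.6% of the summed CPM of the members in a library. The order of the first pair differed with age, with Ifi27l2a at 1928 ± 333 TPM and Ly6e at 1475 ± 46.7 TPM in the young libraries, and Ly6e at 3339 ± 770 TPM and Ifi27l2a at 2453 ± 805 TPM in the aged ones (SD, n = 3 each). Rtp4 (133 TPM) and Xaf1 (131 TPM) followed, a pair whose means differed by less than their SDs. The most abundant GTPases per length were Ifi47 at 45.4 TPM and Tgtp2 at 27.8 TPM. Gbp4 (0.768 TPM), Gbp5 (0.639 TPM), Tgtp1 (0.352 TPM) and Socs1 (0.112 TPM) were at the bottom.

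Transcription factors of the interferon response had fitted values above 0 in 4 of 4 cases. Irf1, a factor that interferon gamma induces strongly, was at 22.6, 12.2 and 28.5 CPM in the young libraries and at 22.2, 113 and 85.1 CPM in the aged ones. Aged replicates 2 and 3 were above all young libraries and aged replicate 1 lay among them, so the groups overlapped (log2 fold change 1.80, SE 0.73, edgeR adjusted p = 0.808). Irf7, the factor that amplifies type I interferon production, was at 1.79, 26.1 and 0.179 CPM in young against 41.4, 48.7 and 13.8 CPM in aged libraries. Young replicate 2 lay among the aged values (1.89, SE 1.49). Irf9, the DNA-binding part of the type I complex, was highest in aged replicate 2 (97.9 CPM) and lowest in aged replicate 3 (8.55 CPM), with the young libraries at 14.7 to 24.8 CPM. Stat2, its partner, was at 66.0, 14.3 and 0.954 CPM in the aged libraries, a range that held all 3 young values (13.4 to 17.2 CPM).

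In the IFIT family, whose proteins bind viral RNA and block its translation, values above 0 were fitted for 4 of 4 members. For 2 of them the aged libraries lay above without overlap, against 7.54% of all genes tested. Ifit1 (ENSMUSG00000034459.8, chr19:34640871-34650009, plus strand), whose promoter is shown above, was at 20.8, 7.82 and 23.8 CPM in the young libraries and at 43.6, 25.7 and 159.5 CPM in the aged ones. All aged values were above all young ones, with aged replicate 3 far above the other two (log2 fold change 2.12, SE 0.82, edgeR adjusted p = 0.797). Without that library the value was 0.99 and the unadjusted p was above 0.05. Ifit3 was at 86.4, 39.8 and 97.97 CPM in young against 99.3, 106 and 126 CPM in aged libraries, without overlap but with young replicate 3 next to aged replicate 1 (0.56, SE 0.45). Ifit2 had 0, 2 and 860 counts in the young libraries and 2800, 1621 and 649 in the aged ones. Ifit3b had 39, 122 and 1777 counts in young and 1422, 693 and 69 in aged libraries (0.0093, SE 1.46). It lies beside Ifit3 on chromosome 19, and 51.2% of the 50-base windows of Ifit3 transcripts are also found in Ifit3b transcripts, so the split of reads between them is uncertain. With both summed, the value was 0.45 (SE 0.49).

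In the OAS family, enzymes and enzyme-like proteins that sense double-stranded RNA, 2 of 4 members did not overlap between the groups. Both had the aged libraries above, which held for 7.54% of all genes tested. Oasl2 (ENSMUSG00000029561.17, chr5:114896936-114912234, plus strand) was at 19.3, 25.4 and 27.8 CPM in the young libraries and at 52.5, 62.6 and 189 CPM in the aged ones. Each aged library was above every young one (log2 fold change 2.07, SE 0.62, edgeR adjusted p = 0.619). Without aged replicate 3, the highest library, the value was 1.25 and the unadjusted p was above 0.05. Oas1a was at 21.5, 0.112 and 19.9 CPM in young against 37.0, 56.5 and 64.6 CPM in aged libraries. Young replicate 2 had only 3 counts of it, and the SE was wide (1.93, SE 1.28). Its transcripts share 57.6% of their windows with Oas1g, so its reads are uncertain. Oas2 (0.052, SE 1.92) and Oasl1 (-0.12, SE 1.70) were low and irregular, Oas2 with 0 counts in aged replicate 3 and Oasl1 with 3 counts in young replicate 1. Oasl1 also overlaps an antisense gene, Gm13822, of a similar level, and without strand the reads of the 2 cannot be told apart.

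In the ISG15 system both members overlapped between the ages. Isg15, the ubiquitin-like protein that is joined to other proteins after interferon, was at 30.5, 55.4 and 109 CPM in the young libraries and at 61.9, 29.0 and 60.4 CPM in the aged ones. The aged values lay within or just below the young range (log2 fold change -0.37, SE 0.62). Its promoter, shown above, holds 3 ISRE cores. Usp18, the protease that removes Isg15 and damps the receptor, was at 38.0, 72.6 and 48.3 CPM in young against 43.8, 63.0 and 49.2 CPM in aged libraries (-0.026, SE 0.53).

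Among the 12 other antiviral effectors, 9 had values above 0 and 1, Ly6e, did not overlap between the groups (aged above, 7.54% of all genes). Ly6e (ENSMUSG00000022587.14, chr15:74955051-74959905, plus strand, GENCODE M21 on GRCm38), a membrane-anchored protein that hinders the entry of some viruses and eases that of others, was at 2974, 2740 and 2921 CPM in the young libraries and at 5298, 5120 and 5576 CPM in the aged ones. The aged libraries were all far above the young ones, and the replicates of each age lay close together, at 2878 ± 123 and 5332 ± 230 CPM (SD, n = 3 each). The log2 fold change was 0.89 (SE 0.25, edgeR adjusted p = 0.619). It lay between 0.86 and 0.92 in every fit that left out a library, each with an unadjusted p under 0.05. Ifitm3, which blocks viral entry from endosomes, was at 969, 1074 and 838 CPM in young against 2206, 1017 and 1834 CPM in aged libraries. Aged replicate 2 lay below young replicate 2 (0.81, SE 0.34, edgeR adjusted p = 0.840).

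The other two very abundant effectors overlapped between the ages. Bst2 (tetherin), which holds budding viruses on the cell surface, was at 701, 697 and 809 CPM in young against 1056, 538 and 515 CPM in aged libraries, so aged libraries were both the highest and the lowest (-0.065, SE 0.34). Ifi27l2a, a small hydrophobic protein, was at 1012, 1207 and 885 CPM in young against 1771, 644 and 1076 CPM in aged libraries (0.17, SE 0.38). For both genes aged replicate 1 was the highest library. Rtp4, a chaperone of receptors, was at 164, 232 and 262 CPM in young against 336, 195 and 372 CPM in aged libraries (0.46, SE 0.36). Xaf1, a binding partner of the apoptosis inhibitor XIAP, was at 132, 167 and 123 CPM in young against 140, 101 and 138 CPM in aged libraries (-0.15, SE 0.36). Trim30a, a ubiquitin ligase family member that damps innate signalling, was at 129, 23.4 and 101 CPM in young against 207, 71.9 and 187 CPM in aged libraries (0.88, SE 0.64). The ranges of Rtp4, Xaf1 and Trim30a overlapped between the ages.

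The remaining effectors had means under 50 CPM. Rsad2 (viperin), which makes a chain-terminating nucleotide, was at 14.0, 27.8 and 48.9 CPM in young against 84.7, 29.8 and 70.0 CPM in aged libraries (1.02, SE 0.69). Its neighbour on chromosome 12, Cmpk2, a nucleotide kinase, was at 0.0707 to 11.5 CPM (0.18, SE 2.03). For Rsad2 young replicate 3 lay among the aged values, and Cmpk2 was near 0 in a library of each age. Mx1, a dynamin-like GTPase, had 1, 116 and 100 counts in young and 743, 503 and 2 in aged libraries. Ifi44 had 1, 509 and 0 counts in young and 2414, 686 and 0 in aged libraries. For Mx1 and Ifi44, aged replicate 1 was the highest library while another aged library held 2 counts or none. Parp14, a mono-ADP-ribosyltransferase, was at 33.7 to 75.3 CPM in young against 26.5 to 39.1 CPM in aged libraries (-0.63, SE 0.62).

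Nucleic acid sensors had values above 0 in 3 of 3 cases, none with an unadjusted p under 0.05. Ifi204, a DNA sensor of the PYHIN family, was at 52.1, 137 and 51.0 CPM in young against 171, 80.8 and 40.2 CPM in aged libraries (log2 fold change 0.28, SE 0.62). It shares 20.0% of its windows with other genes, mostly Ifi211. Zbp1, a sensor of Z-form nucleic acids that can start cell death, had 8, 749 and 4 counts in young and 302, 1102 and 1205 in aged libraries (1.53, SE 1.73). Ifih1 (MDA5), a sensor of long double-stranded RNA, was at 17.2, 36.6 and 33.9 CPM in young against 77.3, 16.4 and 12.5 CPM in aged libraries (0.28, SE 0.87). All 3 sensors overlapped between the ages.

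**Figure D2:**
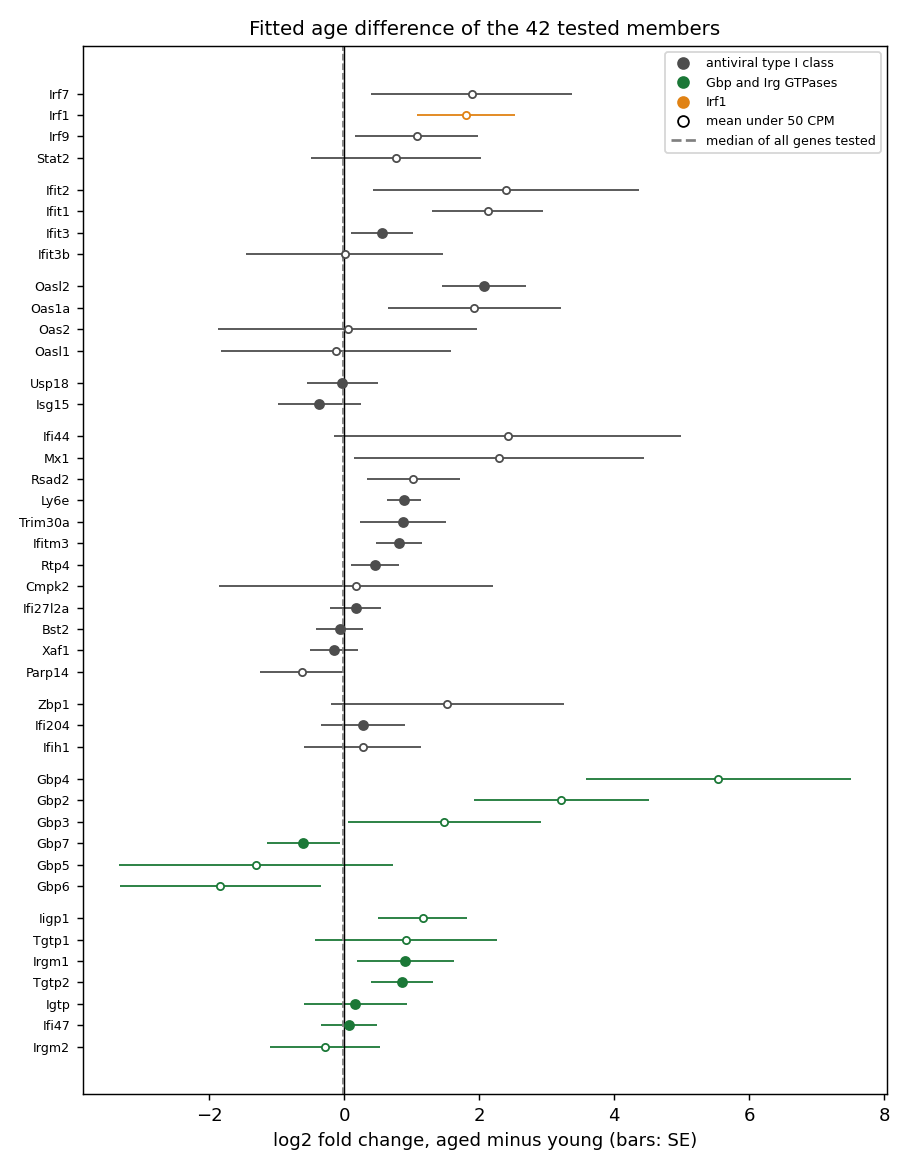
Log2 fold change, aged minus young, of the 42 tested members with its SE as a bar, grouped by role and ordered by value, with filled points for a mean of at least 50 CPM and a dashed line at the median of all genes tested (-0.023). The abundant members lie between -0.60 and 2.07, and the widest bars belong to members under 50 CPM.

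Guanylate-binding proteins, which coat and break open the vacuoles of intracellular microbes, were divided, with 3 of 6 members above 0 and 3 below. Gbp2 (ENSMUSG00000028270.12, chr3:142620602-142638008, plus strand), whose promoter is shown above, was at 6.24, 10.8 and 0.179 CPM in the young libraries and at 30.9, 24.2 and 105 CPM in the aged ones. All aged libraries were above all young ones (log2 fold change 3.22, SE 1.30, edgeR adjusted p = 0.808). Without aged replicate 3, its highest library, the value was 2.26 and the unadjusted p was above 0.05. Gbp4 (ENSMUSG00000079363.7, chr5:105115767-105139586, minus strand) had 2, 3 and 7 counts in the young libraries and 138, 335 and 194 in the aged ones, again without overlap. Its levels were low at both ages, at 0.142 ± 0.0968 and 6.78 ± 1.94 CPM (SD, n = 3 each), and its fitted value (5.54, SE 1.96, edgeR adjusted p = 0.744) depends on how near-zero counts are treated. Gbp4 overlaps Gbp8 and Gbp9 on the same strand, which stood at 2.52 and 11.4 CPM in aged libraries.

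The other Gbp genes went other ways. Gbp7, the most abundant of the family per length (11.5 TPM) and also shown above, was at 171, 99.9 and 136 CPM in young against 129, 108 and 30.6 CPM in aged libraries. Aged replicate 3 was the lowest library for Gbp7 (-0.60, SE 0.54) and the highest for Gbp2, which lies in the same stretch of chromosome 3. Gbp3, also there, had 5, 883 and 98 counts in young and 796, 1027 and 1359 in aged libraries (1.49, SE 1.42). Gbp5, another neighbour and an activator of the NLRP3 inflammasome, was at 0.0259 to 10.3 CPM (-1.30, SE 2.02). Both Gbp3 and Gbp5 overlapped between the ages. Gbp6, on chromosome 5 with Gbp4, was at 66.4, 8.60 and 37.6 CPM in young against 0.104, 26.3 and 5.16 CPM in aged libraries (-1.83, SE 1.49). Gbp6 shares 70.7% of its windows with other genes, mostly Gm43302 and Gbp10. Summed, the 6 Gbp genes came to 249.7, 163 and 179 CPM in young against 198, 194 and 197 CPM in aged libraries, so the aged sums lay inside the young range.

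Immunity-related GTPases, which act on microbe-containing vacuoles and on autophagy, had 6 of 7 values above 0 and none with an unadjusted p under 0.05. Tgtp2 (Irgb6), an effector that coats vacuoles, was at 72.5, 61.6 and 69.1 CPM in the young libraries and at 62.6, 145 and 160.5 CPM in the aged ones. Aged replicate 1 lay with the young libraries and the other two were well above (log2 fold change 0.86, SE 0.46). Tgtp1 took only 10 to 84 counts in a library. Of the windows in Tgtp2 transcripts, 85.8% also occur in Tgtp1, and the value with both summed was 0.86 (SE 0.46). Iigp1 (Irga6), another effector, was at 21.5, 14.5 and 54.0 CPM in young against 91.7, 61.2 and 48.6 CPM in aged libraries (1.16, SE 0.66), with young replicate 3 above aged replicate 3.

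The regulators of the family came out on both sides of 0. Irgm1, which guards the cell's own membranes against the effectors, was at 76.4, 9.38 and 48.3 CPM in young against 83.1, 113 and 55.0 CPM in aged libraries (0.90, SE 0.72). Igtp (Irgm3) was at 21.04, 92.2 and 64.0 CPM in young against 22.3, 132 and 44.4 CPM in aged libraries (0.17, SE 0.76). Irgm2, which shares its locus on chromosome 11 with Igtp on the same strand, was at 9.62 to 49.6 CPM in young against 19.3 to 32.7 CPM in aged libraries (-0.28, SE 0.81). All 3 overlapped between the ages. Ifi47, the most abundant Irg gene per length, was at 183, 71.3 and 167 CPM in young against 151, 150.4 and 140.1 CPM in aged libraries (0.070, SE 0.42). Its aged values were close together and lay inside the young range. Summed, the 7 Irg genes came to 411, 299 and 413 CPM in young against 444, 631 and 469 CPM in aged libraries. Every aged sum was above every young one, though no single Irg gene separated the ages. Socs1, the inhibitor that shuts off interferon receptors, was too low to be tested, at 0, 0 and 7 counts in young and 51, 51 and 0 counts in aged libraries.

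Set side by side, the antiviral class and the GTPase class both had medians above 0, but of the 2 summed levels only the antiviral one separated the ages. Without Ly6e the antiviral sums overlapped, while the 7 Irg genes alone had every aged sum above every young one. The lowest aged Irg sum (444 CPM) was close to the highest young one (413 CPM), and no single Irg gene separated the ages. The Irg sum was not retaken with a gene left out. The antiviral type I class held 28 genes, all members outside the Gbp and Irg families except Irf1 and Socs1. The median log2 fold change was 0.67 over these 28 genes, 0.86 over the 13 Gbp and Irg genes and -0.023 over all genes tested. At a mean of at least 50 CPM, it was 0.37 over 12 antiviral genes, 0.17 over 5 GTPase genes and -0.047 over 2189 genes. At that level 3 of the 17 members did not overlap with the aged libraries above (Ly6e, Oasl2 and Ifit3, background 11.2%), and 3 had an unadjusted p under 0.05 (Ly6e, Oasl2 and Ifitm3, background 8.59%). All were antiviral genes. Both medians depended on single libraries. The GTPase median was 0.059 without aged replicate 2, and the antiviral median was 0.44 without aged replicate 1. The difference between the classes was not tested.

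The antiviral genes summed to 6516, 6724 and 6598 CPM in the young libraries and to 12143, 8515 and 10597 CPM in the aged ones. The young sums lay within a narrow band and every aged sum was above it, 1.58-fold higher on average. Without Ly6e the groups overlapped, at 3542, 3984 and 3677 CPM in young against 6846, 3394 and 5021 CPM in aged libraries. Without the 4 most abundant genes they did not, at 860, 1007 and 1145 CPM in young against 1813, 1195 and 1596 CPM in aged libraries, with young replicate 3 close to aged replicate 2. The GTPase sums were 661, 462 and 591 CPM in young against 643, 825 and 666 CPM in aged libraries, which overlapped. Aged replicate 1 was the lowest aged library for the GTPase sum and the highest for the antiviral sum.

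**Figure D3:**
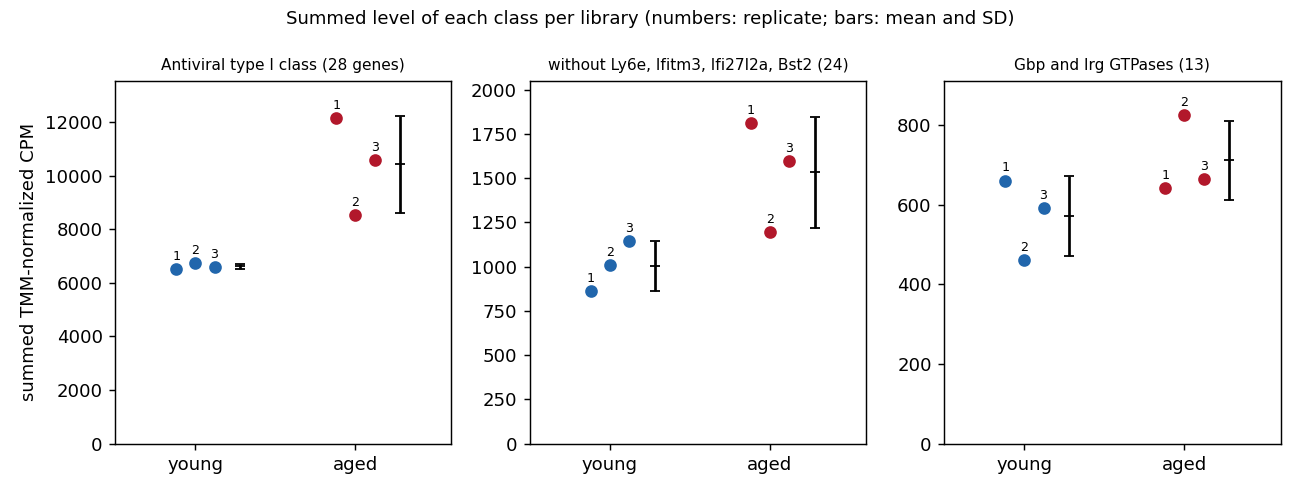
Summed TMM-normalized CPM of the antiviral class, of the same class without its 4 most abundant genes, and of the Gbp and Irg GTPases, with 1 point per library numbered by replicate and bars for the mean and SD of each group. The antiviral sums separate the ages in both panels, while the GTPase sums overlap. Without Ly6e alone, which is not drawn, the antiviral sums overlap too, and the Irg sums taken alone do not overlap.

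The aged libraries did not share 1 pattern of members. Aged replicate 1 was the highest of the 6 libraries for 12 of the 28 antiviral genes (42.9%, against 15.5% of all genes tested), among them Stat2, Ifit2, Mx1, Ifi44, Ifih1 and Ifi204, but for only 1 of the 13 GTPases, Iigp1. Aged replicate 3 was the highest library for 7 antiviral genes (25%, against 19.0% of all genes), among them Ifit1, Oasl2 and Oas1a. It was the lowest for 8 others (28.6%, against 20.7% of all genes, a tie going to the first library), among them Stat2, Irf9, Ifih1 and Oas2. Aged replicate 2 was the highest for 4 GTPases (30.8%, against 15.7% of all genes). An aged library was the highest for 31 of the 42 members tested (73.8%), against 50.2% of all genes. Young libraries held 3 counts or fewer for 5, 3 and 1 of the 42 members, and aged ones for 1, 1 and 4.

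**Figure D4:**
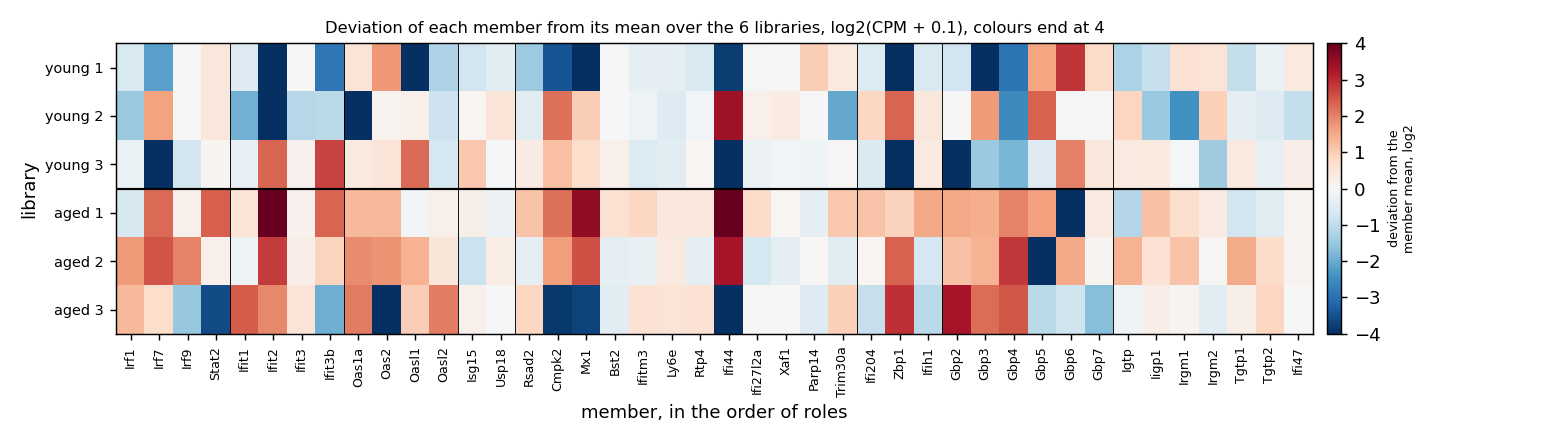
Deviation of each tested member from its own mean over the 6 libraries, on the scale of log2(CPM + 0.1), with libraries in rows, members in columns by role, red for above and blue for below the mean, and colours ending at 4. Aged replicate 1 and aged replicate 3 are both red for some members, such as Gbp2 and Oas1a. For others, such as Stat2 and Ifi44, aged replicate 1 is red and aged replicate 3 is blue.

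Members with and without these promoter elements covered overlapping age differences. The log2 fold changes ran from -1.30 to 3.22 with an ISRE core and from -0.15 to 2.42 without one. The median log2 fold change was 0.79 over the 20 tested members with an ISRE core in the window and 1.44 over the 10 tested members with none. It was 0.81 over the 11 members with a GAS core and 0.88 over the 19 with none. It was 0.17 over the 9 members with both elements, 0.88 over the 11 with an ISRE core alone and 0.63 over the 8 with neither, so the medians followed no single order. These medians are descriptions of small groups and were not tested. A member counted as having none may hold an element at another spacing or another start.

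Among the interferon genes outside the 43, no listed ligand was detected, and interferon genes not on the list were not read. All 10 interferon genes listed, Ifnb1 and Ifng among them, had 0 counts in every library, which allows up to 0.0777 to 0.112 CPM (3 counts per library, counting error only). Of 22 receptors, sensors and signal transducers, 3 were higher at an unadjusted p under 0.05 and 0 lower, against 3.63% and 2.04% of all genes tested, and none was called. Ifngr1, the ligand-binding chain of the interferon gamma receptor, averaged 142 ± 23.7 CPM in the young and 596 ± 248 CPM in the aged libraries (SD, n = 3 each, fitted log2 difference 2.07, SE 0.39, edgeR adjusted p = 0.378). Tmem173 (STING), the adaptor of DNA sensing, was at 87.4 ± 18.1 and 355 ± 153 CPM (2.02, SE 0.42, edgeR adjusted p = 0.410), and the macrophage factor Irf8 at 43.4 ± 9.10 and 99.5 ± 26.4 CPM (1.197, SE 0.46). The type I receptor chain Ifnar2 was at 356 ± 36.3 and 355 ± 50.2 CPM, and the endosomal RNA sensor Tlr7 at 254 ± 89.1 and 223 ± 13.6 CPM.

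Of 61 further interferon-stimulated genes, 52 were tested. At an unadjusted p under 0.05, 4 were higher and 0 lower (3.63% and 2.04% of all genes), and none was called. Of the 52 values 30 were above 0 (median 0.29), against 49.3% of all genes. Lgals3bp, a secreted galectin partner, averaged 59.2 ± 25.4 CPM in the young and 199 ± 31.4 CPM in the aged libraries (SD, n = 3 each, 1.75, SE 0.45). Shisa5 (1.71, SE 0.49), Sp100, a nuclear body protein (1.41, SE 0.48), and Parp9 (1.90, SE 0.80) were the others. The most abundant of the list per length were Ifitm2, a relative of Ifitm3, at 896 ± 108 and 1003 ± 280 CPM, and Ms4a4c at 171 ± 56.4 and 212 ± 86.0 CPM. Of 14 further interferon-induced GTPases 9 were tested, with 0 under the unadjusted limit and a median of -0.035. Gvin1, a very large GTPase (1.57, SE 0.93), Gm4951 (1.21, SE 0.72), Irgq (-1.13, SE 1.52) and 9930111J21Rik2 (-0.094, SE 0.62) were the ones with the smallest p-values or highest levels.

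Markers of cells that make interferon were read as well. T and NK cells make interferon gamma. Their markers summed to 16.7 to 93.9 CPM in young against 7.99 to 159 CPM in aged libraries, with 5 to 9 of the 12 at 0 in a library. Klrb1c, Ncr1, Gzma and Gzmb were at 0 in every library. Nkg7 had 1, 0 and 0 counts in young and 229, 337 and 0 in aged libraries. Trbc2 had 0, 1 and 0 in young and 409, 0 and 0 in aged ones. Trac had 1, 0 and 0 in young and 4, 193 and 0 in aged ones. Cd8a had 3 counts in young replicate 2 and 0 elsewhere. Cd4 was at 14.5, 74.6 and 16.1 CPM in young against 6.81, 16.6 and 7.88 CPM in aged libraries. Cd3g held 924, 348 and 15 counts in young and 1913, 1 and 2 in aged libraries, Cd3d 0, 166 and 1 in young and 1711, 332 and 1 in aged ones, and Cd3e 113 counts in aged replicate 1 and 4 or fewer elsewhere. These 3 CD3 transcripts were highest in aged replicate 1. Cd3g and Cd3d were not confined to it, while Cd3e was near 0 elsewhere. The 8 markers of plasmacytoid dendritic cells, known as strong producers of type I interferon, summed to 1301 to 1819 CPM in young against 2118 to 2534 CPM in aged libraries, but they include Bst2, Irf7 and the microglial gene Siglech. Of the others, Klk1 was at 0 in all libraries, and Ly6d at 0 in young replicate 2 and aged replicates 2 and 3. Cox6a2 was at 0 in young replicate 2 and aged replicate 3, with 115 to 889 counts elsewhere. Ccr9 had 0 to 81 counts, and Tcf4, which other cells also express, had 3078 to 6276.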

How the data were processed

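Each of the 6 libraries was made from about 500 pg of total RNA from sorted cells, amplified over 13 PCR cycles with a kit that does not mark strand, per the labels' protocols. The submitters' processing notes name bcl2fastq 2.20, FastQC, fastp, DRAGEN, Picard and mm10. What counted the reads, and on which gene models, is not stated in those sources. The authors' deposited tables held estimated counts per gene, not scaled to depth, and TPM, which the authors scaled for depth and length. The counts were rounded here to whole numbers, and 35513 of 35598 identifiers were matched to GENCODE M21.

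Genes that passed filterByExpr (10661) were scaled by TMM and tested in edgeR 4.0.16 (R 4.3.3), aged against young, by the two-sided quasi-likelihood F test without covariates. Adjusted p-values are Benjamini-Hochberg values over these genes, and an adjusted p under 0.05 made a call. The SE is the fold change divided by the root of F. Levels are TMM-normalized CPM, and TPM where genes are compared. The code was tested on simulated data. Floors cover counting error only.

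The members, their roles and the pathway and marker lists were chosen with earlier results of these data known. A member was given library by library at a mean of at least 50 CPM, at an unadjusted p under 0.05, or without overlap between the groups at a mean of at least 10 CPM, and the others completed each family. From each pathway list, called genes, the 3 smallest p-values and the 2 highest mean TPM were named. Parp9 and Cxcl13 were added after their values were seen. Alternatives used DESeq2 1.42.0, limma 3.58.1, other filters, a replicate block and the omission of each library. Promoter windows came from RefSeq on GRCm38.p6, and shared 50-base windows were counted in GENCODE M21 transcripts.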

Additional observations from a re-analysis of the deposited data

How the results depend on the processing

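No member was called in any of the 14 alternative settings, which were another normalization, other tests, filters and dispersions, the replicate block and the omission of each library. Over the whole table, the 1 gene called higher and 0 lower turned into 113 and 41 by the DESeq2 Wald test, 0 and 0 by limma-voom, 51 and 11 with no filter on low counts, and 19 and 6 when testing was limited to means of 50 CPM or more. With a library omitted, 0 to 2 genes were called higher and 0 to 1 lower. Members higher at an unadjusted p under 0.05 (7) were 3 at a mean of 50 CPM or more, where 17 were tested, and 2 to 8 with a library omitted. The median log2 fold change then lay between 0.44 and 0.84 for the antiviral class and between 0.059 and 0.88 for the GTPases. On the log2(TPM + 1) scale the median of all genes shifted from -0.023 to 0.22, with the antiviral class at 0.82 and the GTPases at 0.58. Libraries sharing a replicate number did not deviate together (r = -0.0097, -0.0257 and 0.022 for replicates 1, 2 and 3, across genes), so the number was not taken as a pairing. With the replicate block, 1 gene was called higher, 0 lower and 0 members, 7 members were under the unadjusted limit, and the medians were 0.70 and 0.69.

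Of 304 alternative values for named members, 19 changed sign. Usp18 turned to 0.048 in limma-voom, 0.27 on the TPM scale, 0.0045 with no filter, 0.030 at a mean of 50 CPM or more and 0.0099 with the replicate block. Bst2 turned to 0.12 and Xaf1 to 0.21 on the TPM scale. With a library omitted, Isg15 ranged from -0.70 to 0.24, Usp18 from -0.21 to 0.27, Bst2 from -0.47 to 0.12, Ifi27l2a from -0.25 to 0.47, Ifi204 from -0.40 to 0.91, Igtp from -0.82 to 0.64 and Ifi47 from -0.25 to 0.31. The cause was not tested. Depth limits the 10 of 42 members that had 3 counts or fewer in some library. Under 50 CPM the median biological coefficient of variation over genes, the scatter beyond counting error, was 129%, against 48.2% from 50 CPM up.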
